A study of Macaca mulatta with 24 samples.

Results

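Aquaporins are membrane channels that pass water, and the subgroup of aquaglyceroporins also passes glycerol. In the large bowel the epithelium takes up water behind absorbed salt. AQP8 is a water channel of the absorptive cells at the mucosal surface, and AQP3 is an aquaglyceroporin of the basolateral membrane of epithelial cells. AQP1 is the water channel of capillary endothelium and red blood cells, and AQP4 is that of glial cells. The genes followed here were AQP1, AQP3, AQP4, AQP5, AQP7, AQP8, AQP9 and AQP11. Every transcript probe that carried one of these 8 symbols was used, whatever its signal, which gave 11 of the 43603 different probes on the array and 7 of the 8 genes. No probe carried the symbol AQP1, so the vascular water channel was not analysed here. Of the 11 probes, 7 belonged to the 5 genes set down as epithelial (AQP3, AQP5, AQP7, AQP8 and AQP11), 3 to the glial AQP4 and 1 to AQP9, an aquaglyceroporin of leukocytes and liver.

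The samples were pieces of whole colon wall from young-adult male rhesus macaques (Macaca mulatta), each hybridised to its own 1-colour array, 24 arrays of 24 animals in all. Irradiated animals had received a single total-body dose (TBI) of cobalt-60 gamma rays of 6.7 or 7.4 Gy. Colon was taken from 4 animals per dose on day 4, from 4 per dose on day 7 and from 2 per dose on day 12. The 4 control animals were not irradiated, carried the label day 4 and served as the baseline for all days, so the comparisons with control share these arrays. The piece holds mucosa, muscle, vessels and nerves together, and in such bulk tissue fewer cells of a type and less RNA per cell cannot be told apart.

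All values below are log2 signals relative to the 75th percentile of the same array, so a level of 0 is a signal at that percentile. Levels of different probes were not set against each other, since probes differ in brightness. A probe is said to have risen or fallen where limma's adjusted p was under 0.05 and the change at least 2-fold. Between 66.7% and 85.0% of the spots of an array were well above background, the 75th percentile lay between 558 and 971 intensity units, and the arrays of a group correlated at 0.963 to 0.985 over all probes. The colon epithelium markers CDX1, CDX2, EPCAM and MUC2 were above background on all 24 arrays. Arrays were spread over 6 slides, and the control arrays all lay at position 1 of their slides whereas all 7.4-Gy day-4 arrays lay at position 2. Of the 11 aquaporin probes, 10 passed the filter on dim probes and were tested, and these covered the 7 genes.

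On day 4 after 7.4 Gy, 3 of the 10 tested aquaporin probes had fallen and none had risen: the probe of AQP8 and both probes of AQP3. Of all 38214 probes tested, 7.04% were called in this comparison and 3.65% were called lower. The 3 probes all belonged to genes set down as epithelial (3 of 7 probes, 2 of 5 genes). This label was not tested in these data, and AQP3 and AQP7 count with 2 probes each. Of the 2 tested AQP4 probes 0 passed, and 0 of 1 AQP9 probe. AQP9 was above background on 0 of 4 control and 0 of 4 irradiated arrays, and AQP4 was near background in the controls. A fall of AQP4 or AQP9 could therefore hardly have been seen, and the contrast of calls cannot decide on it. The median change was -0.65 over the epithelial probes, 0.23 over the AQP4 probes and -0.08 over all probes, but each of the 2 AQP4 probes was above background on 1 of 4 control arrays, so their median compares signals near background. On day 4 after 6.7 Gy none of the 10 probes passed (background 3.64%). The 7 epithelial probes had a median of -0.53, and all probes had a median of -0.07. No aquaporin probe passed against control on day 7 after 6.7 Gy (0.317% of all probes called) or 7.4 Gy (0.387%). None passed on day 12 after 6.7 Gy (0.0183%), after 7.4 Gy (0.0262%) or with the doses pooled (0.0654%).

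**Figure D1:**
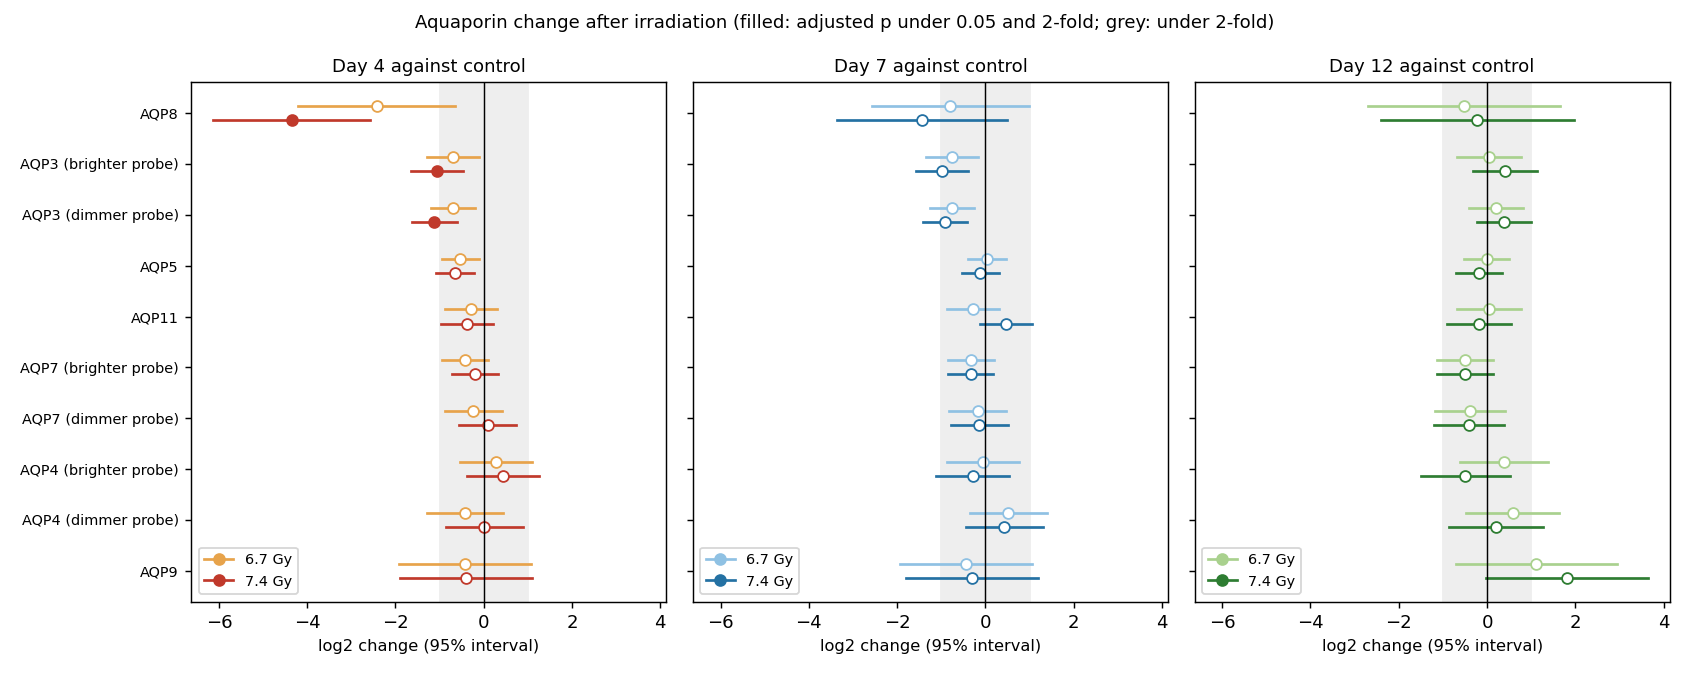
Log2 change against the control animals with its 95% confidence interval for the aquaporin probes tested, in each dose and day group; filled points passed limma's threshold, and the grey band holds changes under 2-fold. AQP8 and both AQP3 probes pass on day 4 after 7.4 Gy, and no probe passes against control on day 7 or day 12.

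AQP8, the surface-cell water channel, had the largest day-4 change of the 10 aquaporin probes at both doses. Its probe (A_01_P1712271) read 7.44, 7.03, 7.81 and 8.34 in the 4 controls, a mean of 7.65 ± 0.56 (SD, n = 4). After 6.7 Gy it read 6.06, 4.95, 6.59 and 3.33 on day 4 (5.23 ± 1.44, n = 4), and after 7.4 Gy it read 1.80, 6.56, 1.32 and 3.51 (3.30 ± 2.37, n = 4). Every irradiated day-4 array lay below every control array, and the 8 arrays were spread far more widely than the controls, with replicates 1 and 3 of the 7.4-Gy group lowest and replicate 2 closest to the controls. On day 7 the levels were 6.97, 6.76, 6.89 and 6.80 after 6.7 Gy (6.85 ± 0.09, n = 4). After 7.4 Gy they were 5.38, 5.86 and 7.40 (6.21 ± 1.06, n = 3), and the spot of the remaining array, which read 3.94, was marked as an outlier by the scanner software and left out of the fit. On day 12 the levels were 7.04 and 7.22 after 6.7 Gy and 7.79 and 7.08 after 7.4 Gy, all within the control range.

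**Figure D2:**
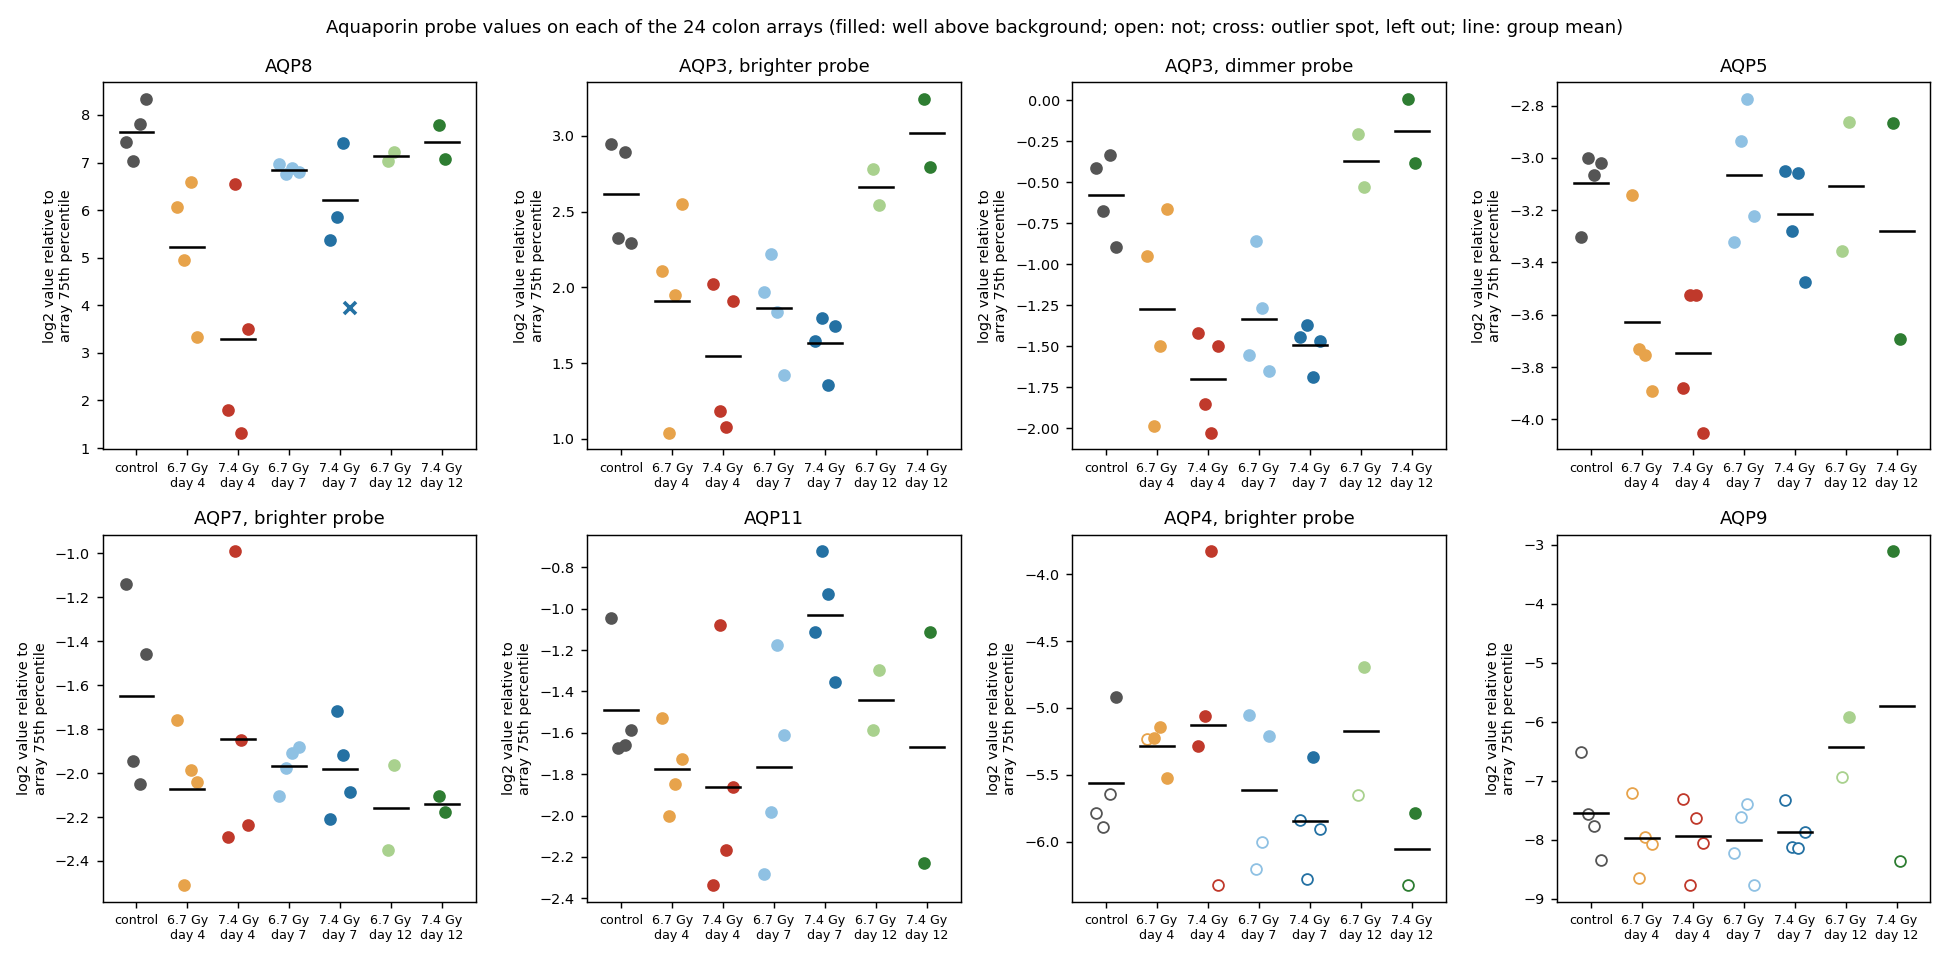
Log2 signal relative to the 75th percentile of the array for the leading probe of each of the 7 aquaporin genes and the dimmer AQP3 probe, 1 point per array by group, with a line at each group mean; open points were not well above background, and the cross is the AQP8 outlier spot left out of the mean. For AQP8 the 8 day-4 arrays lie between 1.32 and 6.59, all below the controls at 7.03 to 8.34, and AQP9 is above background only on 2 day-12 arrays.

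AQP8 fell by 4.35 on the log2 scale on day 4 after 7.4 Gy (SE 0.85, 95% interval -6.13 to -2.57, limma adjusted p = 0.00178), which is 20.4-fold with an interval of 5.95 to 70.2, and it was lower in 4 of 4 animals. The fit shares 1 spread over all groups, but the SD was 2.37 in this group and 0.56 in the controls. The interval therefore understates the scatter of this group. Only 0.0445% of the probes tested had a more negative change in this comparison. The change was also -4.08 with spike-in scaling. With array position as a block it was -3.80 with an adjusted p of 0.119, and under the methods' t-test the adjusted p was 0.0714. Against the control on its own slide, replicate 1 was at -6.01 and replicate 2 at -1.78, the only slide pairs this group has.

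After 6.7 Gy the day-4 AQP8 difference from control was -2.42 (SE 0.85, interval -4.20 to -0.64, limma adjusted p = 0.077), a size of 5.35-fold that did not pass the threshold, with groups that did not overlap. AQP8 was the only aquaporin probe whose 6.7-Gy day-4 arrays all lay below the controls, against 8.68% of all probes. The 2 doses differed on day 4 by -1.93 (7.4 minus 6.7 Gy, interval -3.71 to -0.15, limma adjusted p = 0.778) and their arrays overlapped. No probe on the array, and so no aquaporin probe, passed the test of 7.4 against 6.7 Gy on day 4, day 7 or day 12 (0% called each time).

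Against day 4, AQP8 was higher on day 7 by 2.27 over both doses (SE 0.62, limma adjusted p = 0.0126, 4.81-fold), and the 7 day-7 arrays in the fit lay above the day-4 mean, the outlier spot of 3.94 having been left out. With that spot kept the difference was 1.98 (adjusted p = 0.0251). It was the only one of the 10 aquaporin probes to rise in this comparison, where 2.38% of all probes were called higher and 4.44% in either direction. On day 12 AQP8 was higher than on day 4 by 3.02 (SE 0.74, limma adjusted p = 0.00651, 8.09-fold) and the lowest day-12 array lay above the highest day-4 array. Under the methods' t-test neither passed (adjusted p = 0.0568 on day 7 and 0.0719 on day 12). The remaining difference from control was -0.80 on day 7 after 6.7 Gy (adjusted p = 0.826) and -1.44 after 7.4 Gy (adjusted p = 0.600, or -2.01 and 0.394 with the outlier spot kept). On day 12 it was -0.52 and -0.22, with intervals from -2.70 to 1.66 and from -2.40 to 1.96. The fit could thus not resolve differences of several fold. All these comparisons use 1 spread shared by all groups. The SD of AQP8 ran from 0.09 on day 7 after 6.7 Gy to 2.37 on day 4 after 7.4 Gy. The width on day 12 therefore reflects the day-4 scatter as well as the 2 animals per group. In the order of group means AQP8 ran from control through 7.4 Gy day 12, 6.7 Gy day 12, 6.7 Gy day 7, 7.4 Gy day 7 and 6.7 Gy day 4 to 7.4 Gy day 4, and of these neighbours only the 6.7-Gy groups of day 12 and day 7 did not overlap in their arrays.

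AQP3 was the other epithelial aquaporin that fell. Its brighter probe (A_01_P008566) read 2.94, 2.33, 2.89 and 2.29 in the controls (2.61 ± 0.35, n = 4). It read 2.11, 1.04, 1.95 and 2.55 on day 4 after 6.7 Gy (1.91 ± 0.63, n = 4) and 2.02, 1.19, 1.08 and 1.91 after 7.4 Gy (1.55 ± 0.49, n = 4). All 7.4-Gy day-4 arrays lay below all controls, while the 6.7-Gy arrays overlapped with them. On day 7 it read 1.97, 2.22, 1.84 and 1.42 after 6.7 Gy and 1.65, 1.80, 1.36 and 1.74 after 7.4 Gy, all below the lowest control array. On day 12 it read 2.78 and 2.54 after 6.7 Gy and 3.24 and 2.80 after 7.4 Gy, inside the control range or above it.

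The brighter AQP3 probe fell by 1.07 on day 4 after 7.4 Gy (SE 0.28, interval -1.65 to -0.48, limma adjusted p = 0.0120), or 2.09-fold. This value lies close to the 2-fold minimum, and the call was lost in 11 of 24 alternatives, with a change between -1.74 and -0.79 over all of them. The dimmer probe (A_01_P1723026) fell by 1.12 (SE 0.24, limma adjusted p = 0.00331, 2.17-fold), from -0.41, -0.67, -0.33 and -0.89 in the controls to -1.42, -1.85, -2.03 and -1.50. The 2 probes followed each other over the 24 arrays (r = 0.968, and 0.917 with the group means taken out), so they are 2 readings of 1 transcript and not separate support.

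At the other times AQP3 gave differences from control that did not pass. After 6.7 Gy on day 4 the brighter and the dimmer probe were at -0.70 (adjusted p = 0.115) and -0.69 (adjusted p = 0.0723). On day 7 they were at -0.75 and -0.76 after 6.7 Gy (adjusted p = 0.346 and 0.226) and at -0.98 and -0.91 after 7.4 Gy (adjusted p = 0.141 and 0.106). AQP3 therefore had nearly the same level on day 7 as on day 4, with a difference over both doses of 0.02 for the brighter probe (interval -0.40 to 0.43), in the same comparison in which AQP8 rose. From day 4 to day 12 both AQP3 probes rose, the brighter by 1.11 (SE 0.24, limma adjusted p = 0.00293, 2.16-fold) and the dimmer by 1.20 (adjusted p = 0.000498, 2.31-fold). The brighter probe's rise was 0.97 without 6.7-Gy day-4 replicate 2, 0.999 without 7.4-Gy day-12 replicate 1 and 0.99 after normexp background correction, each under 2-fold.

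Probes whose arrays all lay on 1 side of the controls were counted as well, and none of them was an AQP4 or AQP9 probe. Both of these genes lay near background. On day 4 after 7.4 Gy, 4 of the 10 aquaporin probes lay wholly below the controls (AQP8, both AQP3 probes and AQP5), against 12.9% of all probes. On day 7 the 2 probes wholly below the controls were those of AQP8 and the brighter AQP3 after 6.7 Gy (3.84% of all probes) and both AQP3 probes after 7.4 Gy (2.73%). On day 12 after 7.4 Gy the 1 such probe was the brighter AQP7 probe (8.13%).

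AQP5, a water channel of gland cells, was measured by 1 probe (A_01_P1732481) at a low signal. It read -3.30, -3.00, -3.06 and -3.02 in the controls, -3.14, -3.73, -3.75 and -3.89 on day 4 after 6.7 Gy, and -3.88, -3.52, -3.52 and -4.05 after 7.4 Gy. The 7.4-Gy arrays all lay below the controls. The difference was -0.65 (SE 0.20, limma adjusted p = 0.0297), which is 1.57-fold and so under the 2-fold minimum, and with spike-in scaling it was -0.37 with an adjusted p of 0.191. After 6.7 Gy the difference was -0.53 (adjusted p = 0.0992). AQP5 was higher on day 7 than on day 4 by 0.55 (adjusted p = 0.00877) and on day 12 by 0.49 (adjusted p = 0.0471), again under 2-fold, and its differences from control on days 7 and 12 lay between -0.18 and 0.03.

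AQP7, the aquaglyceroporin through which fat cells release glycerol, did not pass in any comparison. Its brighter probe (A_01_P006606) read -1.14, -1.95, -2.05 and -1.46 in the controls and -2.29, -0.99, -1.85 and -2.24 on day 4 after 7.4 Gy. The 2 groups overlapped, and replicate 2 of the irradiated group was above every control. The difference was -0.19 for this probe, which turned to 0.08 with spike-in scaling, and 0.09 for the dimmer probe (A_01_P1723031). In the other irradiated groups the brighter probe differed from control by -0.51 to -0.32. The 6 adipocyte markers tested had none called and a median change of 0.89 on day 4 after 7.4 Gy, and their mean level was -0.67 to -0.24 on these arrays against -1.61 to -0.96 on the control arrays. CIDEC passed with median scaling (1.04), and CIDEC and ADIPOQ with spike-in scaling (1.25 and 1.26). PLIN4 and LEP, above background on all 24 arrays, were not called under either scaling. They were at -0.22 and -0.15 with median scaling, and at -0.01 and 0.06 with spike-in scaling. The part of these cells in the AQP7 value was not tested.

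AQP11, which lies in intracellular membranes, likewise passed in no comparison. Its probe (A_01_P007060) read -1.04, -1.68, -1.66 and -1.59 in the controls, -2.34, -1.08, -2.17 and -1.86 on day 4 after 7.4 Gy, and -1.11, -0.72, -0.93 and -1.35 on day 7 after 7.4 Gy. The day-7 arrays after 7.4 Gy were the group with the highest mean, whereas after 6.7 Gy on day 7 the arrays read -2.28, -1.98, -1.18 and -1.61. The dose difference on day 7 was 0.73 (7.4 minus 6.7 Gy, interval 0.15 to 1.32, limma adjusted p = 1), and the difference from control after 7.4 Gy was 0.46. The change of the dose difference from day 4 to day 7 was 0.82 (limma adjusted p = 0.994), and no aquaporin probe passed this test (0.00262% of all probes called). Replicate 2 of the 7.4-Gy day-4 group was the highest array of its group for both AQP7 and AQP11.

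The glial channel AQP4 was at the edge of detection in whole colon. Its brightest probe (A_01_P1674151) was well above background on 12 of the 24 arrays, the second (A_01_P1707251) on 5 and the third (A_01_P017855) on 1, which kept the third out of the test. The brightest probe read -5.79, -5.89, -5.64 and -4.91 in the controls, with 1 of 4 above background, and -5.28, -5.06, -3.83 and -6.33 on day 4 after 7.4 Gy, with 3 of 4 above background. The groups overlapped, and the difference was 0.44 (interval -0.39 to 1.26, limma adjusted p = 0.468). It was 0.28 on day 4 after 6.7 Gy. After 6.7 and 7.4 Gy respectively it was -0.06 and -0.29 on day 7, then 0.39 and -0.50 on day 12. None of these passed, and the interval on day 4 after 7.4 Gy leaves room for a change of over 2-fold upward.

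Several other glial genes were measured better than AQP4 itself. S100B, SOX10 and FOXD3 were above background on all 24 arrays, whereas CDH19 was so on 14 and GFAP on 4, with no control and no 7.4-Gy day-4 array among these 4. Of the 6 enteric glia markers tested, 0 passed at either dose on day 4, with a median change of 0.12 after 7.4 Gy; CDH19 was at 0.40 and SOX10 at -0.36, and GFAP had no measured change. Their mean level was -3.11 to -2.40 on the 7.4-Gy day-4 arrays and -3.13 to -2.52 on the control arrays. Of 8 genes of the complex that anchors AQP4 at the glial membrane, 6 were tested and 0 passed, with a median of 0.01. Agrin (AGRN) was above background on 1 of 4 irradiated and 0 of 4 control arrays. It did not pass (adjusted p = 0.173), and no size is given for it so near background. Utrophin (UTRN) was at -0.60 (adjusted p = 0.0448, under 2-fold) and SNTB1 at -0.54.

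For the vascular side, where AQP1 had no probe, only marker genes could be read. Of 9 endothelial markers tested, 1 rose on day 4 after 7.4 Gy and 0 fell, with a median change of 0.51. VWF, the von Willebrand factor of endothelium and platelets, rose by 1.24 (limma adjusted p = 0.000415), ESAM was at 0.59, and PECAM1 and TIE1 were at 0.04 and -0.01, the last turning to 0.27 with spike-in scaling. The mean level of the list was -1.10 to -0.74 on these arrays and -1.43 to -1.13 on the control arrays. Of 4 red blood cell markers tested, 1 fell after 7.4 Gy, the beta-globin gene HBB, by 5.95 (61.9-fold, limma adjusted p = 1.48e-05). The median of the list was -1.18. ALAS2, the erythroid enzyme of haem synthesis, was at -1.85, above background on 3 of 4 controls and 1 of 4 irradiated arrays. HBA2 and AHSP, above background on all 24 arrays, were not called. With quantile scaling HBB and ALAS2 were at -5.95 and -1.77, and HBA2 and AHSP at -0.46 and -0.11. AHSP turned to 0.14 with spike-in scaling. On day 4 after 6.7 Gy, 2 of the 4 red blood cell markers fell. These lists say nothing of AQP1 itself.

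AQP9 had a signal on day 12 only. Its probe (A_01_P003255) was above background on 2 of the 24 arrays, at -5.92 in replicate 2 of the 6.7-Gy and at -3.12 in replicate 1 of the 7.4-Gy day-12 group, and lay between -8.77 and -6.52, not well above background, on the other 22. The second 7.4-Gy day-12 animal was at -8.36, so the animals of this group stood near opposite ends of the range. Day 12 was higher than day 4 with a limma adjusted p of 0.0339, and as no day-4 array was well above background this is given as at least 1.73-fold. This bound sets the day-12 mean of all 4 arrays against the lowest signal that was well above background on each day-4 array. Only 2 of these 4 arrays were above background, so the bound is a size near background and not a strict minimum. Without 7.4-Gy day-12 replicate 1 the fitted difference was 0.56 with an adjusted p of 0.385, and without replicate 2 of that group it was 3.18. The call was lost in 9 of 25 alternatives, among them leaving out either 6.7-Gy day-12 animal (adjusted p = 0.0538 and 0.135), replicate 2 of either day-4 group (0.0577 and 0.0547), or fitting only the groups compared (0.113). With AQP8 and both AQP3 probes, AQP9 made up the 4 aquaporin probes called higher on day 12 than on day 4. Of all probes, 3.57% were called higher and 6.49% in either direction. AQP9 passed the filter on dim probes only through its 2 day-12 arrays above background. Its call and its place in this count are therefore not independent of the filter. The arrays of day 4 and day 12 did not overlap for 2 of the 10 probes, AQP8 and the dimmer AQP3. Over all probes, 7.62% were higher without overlap.

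Neutrophils are among the leukocytes that carry AQP9. Of 8 neutrophil markers tested, 3 rose on day 4 after 7.4 Gy (S100A8 by 3.62, S100A9 by 2.23 and FCGR3 by 1.86) and 1 rose after 6.7 Gy. CXCR1 and CSF3R were lowest at -0.44 and -0.42, and the median of the list was 0.33 after 7.4 Gy. AQP9 was not well above background on any of the 8 day-4 arrays.

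Among the other aquaporins with a probe, MIP was above background on no array, AQP10 on 1 and AQP2 on 4. AQP2, the vasopressin-regulated channel of the kidney, was called lower on day 4 after 7.4 Gy (limma adjusted p = 0.0313). It was above background in only 1 of 4 controls and 0 of 4 irradiated animals, so no size is given for it.

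The AQP8 values moved with the other genes of the mature absorptive surface cell. Of 13 surface colonocyte markers, 11 fell and 0 rose on day 4 after 7.4 Gy, with a median change of -3.06, and 9 fell after 6.7 Gy, with a median of -2.07. CA1, a carbonic anhydrase, fell by 7.46 (176-fold) and CHP2, a partner of sodium-proton exchangers, fell by 6.44 (86.9-fold), while CA4 and MS4A12 were at -0.06 and -0.25 and both turned above 0 with spike-in scaling. These sizes rest on dim signals, since CA1 was well above background on 4 of 4 control arrays but on 1 of 4 after 7.4 Gy, and CHP2 on 4 and 3. From day 4 to day 7, 10 of the 13 rose, with a median of 2.11, and from day 4 to day 12, 11 rose, with a median of 2.41.

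Array by array, the same order showed within the 7.4-Gy day-4 group. The mean level of the 13 markers was -1.35, 0.97, -1.58 and 0.33 in replicates 1 to 4, and AQP8 was likewise highest in replicate 2, then replicate 4, replicate 1 and replicate 3. In the 6.7-Gy day-4 group the marker level was 1.03, 0.54, 0.95 and -0.00, and replicate 4 was lowest for both. The highest array differed there, being replicate 1 for the markers and replicate 3 for AQP8. Control arrays lay at 2.74 to 2.99 and day-12 arrays at 2.57 to 2.84. Outlier spots were left out of these means, that of SLC26A3 on some arrays among them, so not every mean holds all 13 markers. Of 7 general epithelial markers, 3 fell after 7.4 Gy, VIL1 by 1.63, CDX2 by 1.28 and CLDN7 by 1.11, the last being -0.83 and not called with spike-in scaling. Their mean level was 2.91 to 3.32 on these arrays and 3.91 to 4.11 on the control arrays. Of 6 goblet cell markers, 1 fell, ZG16 by 1.59. The enteric neuron, macrophage and smooth muscle lists (7, 6 and 4 genes tested) had 0 calls at either dose on day 4, with medians of 0.57, 0.68 and 0.10 after 7.4 Gy. How far the share of these cells accounts for the aquaporin values was not tested.

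**Figure D3:**
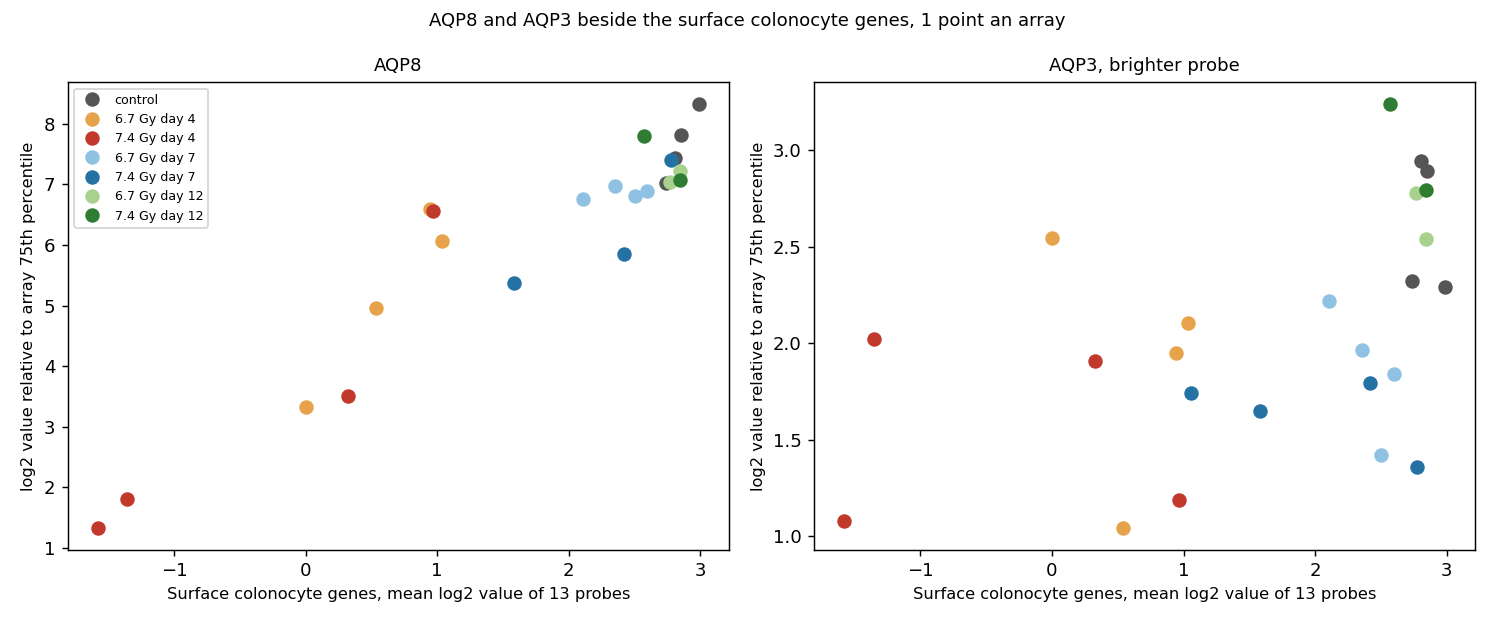
AQP8 and AQP3 (log2 signal relative to the 75th percentile) against the mean log2 level of 13 surface colonocyte markers, 1 point per array coloured by group. Outlier spots are left out, so the mean of some arrays holds fewer than 13 markers. The 7.4-Gy day-4 arrays with marker levels of -1.35 and -1.58 have the lowest AQP8 values, 1.80 and 1.32, while AQP3 stays between 1.08 and 2.02 on the 4 arrays of that group.

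Over all arrays, the genes whose levels were most like AQP8, among 13311 others, were SLC6A4, the serotonin transporter (r = 0.957 over 23 arrays), SLC26A3, the chloride-bicarbonate exchanger of the surface colonocyte (r = 0.936 over 21 arrays), and GUCA2B, the uroguanylin gene (r = 0.931 over 23 arrays). With the group means taken out r was 0.917, 0.842 and 0.827. SLC26A3 and GUCA2B are also among the surface colonocyte markers above, so they are not separate support. SLC6A4 had a mean of -1.11 in the controls, -4.04 and -4.90 on day 4 after 6.7 and 7.4 Gy, and -1.72 and -1.15 on day 12. AQP3 had other neighbours. The closest were LOC694766 (r = 0.780), PYY, the peptide YY gene of enteroendocrine cells (r = 0.775), and MZB1, a gene of antibody-secreting cells (r = 0.741), over 24 arrays. With the group means taken out these were 0.375, 0.490 and 0.714. PYY had a mean of 0.68 in the controls. After 6.7 Gy its mean was -0.36 on day 4, -0.95 on day 7 and 1.27 on day 12, and after 7.4 Gy it was -0.92, -0.28 and 0.95 on the same days.

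The remaining members had lower best correlations than AQP8, and that of AQP5 was above that of AQP3. AQP5 was most like KNG1 (r = 0.827), NEUROG1 (0.809) and CHMP1A (0.806), AQP7 like KBTBD7 (0.700), HCFC1R1 (0.688) and LOC704518 (0.688), AQP11 like LOC100423444 (0.705), TMEM161B (0.690) and LOC698953 (0.681), and AQP4 like EIF5A2 (0.700), PCTP (0.688) and GLS2 (0.661). These points share the array, its scaling and the group structure. AQP8 and the brighter AQP3 probe correlated at 0.416 over 23 arrays and at -0.23 with the group means taken out.

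Salt transport, behind which water follows, was read from a list of 22 genes, of which 16 were tested. SLC26A3 is in this list and also among the surface colonocyte markers, so the 2 lists are not separate readings of it. The list holds transporters, channels, receptors and regulators, so its counts are not of absorptive transporters alone. On day 4 after 7.4 Gy, 7 fell and 1 rose, with a median of -0.65, and after 6.7 Gy 4 fell, with a median of -0.36. SLC26A3 fell by 4.32 (SE 0.73, limma adjusted p = 0.000733, 20.0-fold) and SCNN1A, the alpha subunit of the epithelial sodium channel, by 2.53 (adjusted p = 0.000485). BEST4, a chloride channel of a subset of colonocytes, fell by 2.57 (adjusted p = 0.0401). Among the others that fell were GUCY2C, the guanylin receptor, by 1.98, NR3C2, the mineralocorticoid receptor, by 1.80, and the sodium-proton exchanger SLC9A2 by 1.01. SLC9A2 was no longer called with median, quantile or spike-in scaling, and BEST4 was not called with spike-in scaling.

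One channel subunit went the other way. SCNN1G, the gamma subunit of the same sodium channel, rose by 2.13 after 7.4 Gy (limma adjusted p = 0.0376) and was at 2.15 after 6.7 Gy (adjusted p = 0.0563). The amino acid transporter SLC6A14 was at 0.73 (adjusted p = 0.0146, under 2-fold), and passed with spike-in scaling; it was above background on 1 of 4 controls and 4 of 4 irradiated arrays. From day 4 to day 7, 5 of the 16 genes rose, SLC26A3 by 3.21 and SCNN1A by 1.27 among them, and from day 4 to day 12, 6 rose. The changes of SLC26A3 and AQP8 on day 4 after 7.4 Gy were nearly equal, 20.0-fold and 20.4-fold.

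**Figure D4:**
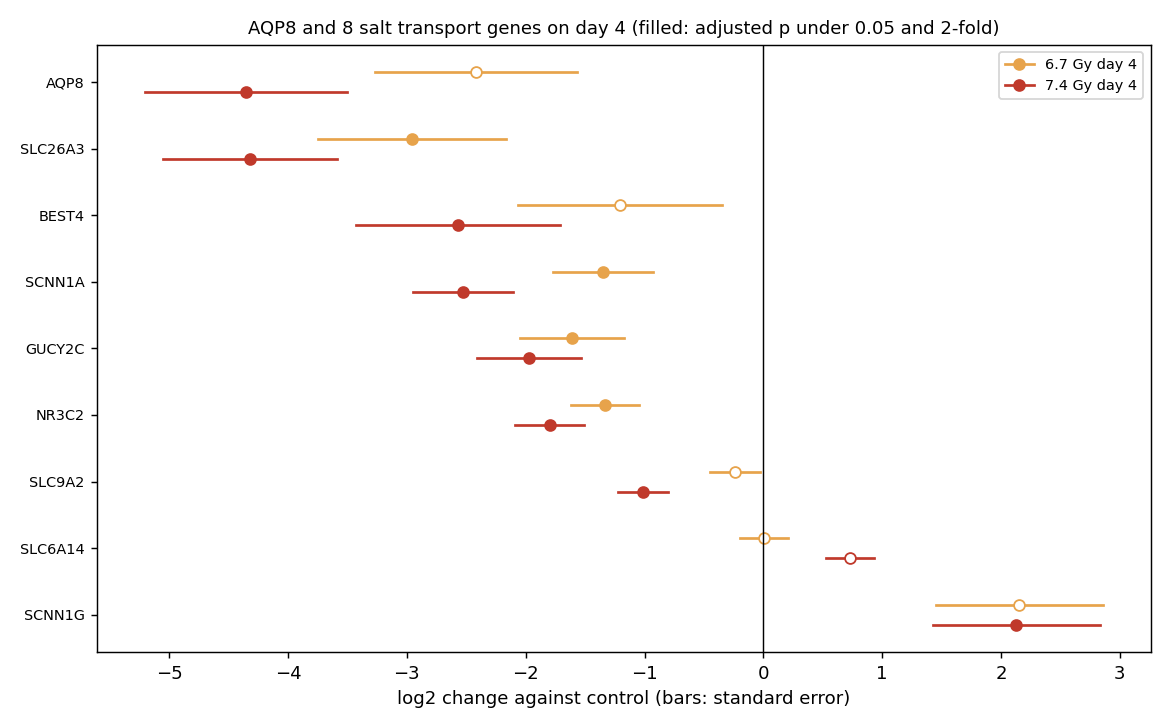
Log2 change of the day-4 animals of either dose against control, with its standard error, for AQP8 and 8 genes of the salt transport list. Filled points passed limma's threshold. After 7.4 Gy, AQP8 (-4.35) and SLC26A3 (-4.32) lie lowest and SCNN1G (2.13) highest.

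Genes that make or use the glycerol that aquaglyceroporins carry showed no call. Of 10 such genes 5 were tested, 0 passed at either dose on day 4, and the median after 7.4 Gy was -0.05. GPD1 was at 0.66 and GPAM at 0.54 (adjusted p = 0.00838, under 2-fold), and GK, the glycerol kinase, was at -0.63 (adjusted p = 0.00532, under 2-fold) and DGAT1 at -0.57.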

How the data were processed

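Colon RNA was hybridised to 1-colour (Cy3) Agilent rhesus arrays. The authors extracted intensities with Feature Extraction 11.0.1.1 and used GeneSpring GX 11.0, per the submitters' processing notes, and the deposited scanner files give a processed intensity, background-subtracted but not yet brought to 1 scale across arrays. The deposited table of raw intensities held the same values. The authors' deposited normalized table held log2 values shifted by 1 constant per array and centred on the median of each probe. RNA was not pooled, and groups came from the sample labels. A protocol label gives another last day than the sample labels, which were followed.

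From the log2 of each processed signal the 75th percentile of that array was subtracted, and this difference was tested. Outlier spots were set to missing (24 to 712 per array), replicate spots were averaged, and no probe was saturated. Probes well above background on at least 2 arrays entered: 38234 passed, and 38214 could be fitted. All 24 arrays entered 1 fit in limma 3.58.1 (R 4.3.3) with a mean for each group. Two-sided p-values were Benjamini-Hochberg adjusted over all probes, and a call needed an adjusted p under 0.05 and a 2-fold change. The scripts were tested on simulated data. The number of arrays limits the precision. Gene symbols came from the series tables for 23674 probes and, for 121 more that are no members, from a RefSeq table by accession; those of the array design can be old.

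All probes of the members are named. The probe with the highest mean over the 24 arrays leads for its gene. From the lists set beside a member, up to 2 highest and 2 lowest genes on day 4 after 7.4 Gy are named, with any gene needed beside a member, and for each member above background on at least 12 arrays the 3 most correlated genes. Further list genes that passed were named after their values were seen. The members and lists were chosen with earlier results of these data known. The alternatives were other scalings (quantile, median, spike-in), normexp background correction (offset 50, on the median signal), other filters, the authors' table, other blocks (slide, array position, scan day, replicate number), the methods' t-test, only the groups compared, no fold minimum and leaving out each array. Replicate numbers did not pair the animals. Some genes of the lists count in them but are not reported here by name.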

Additional observations from a re-analysis of the deposited data

Results flagged for a closer look

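In 54 groups of 4 arrays tested, 2 had an array far from the others, and chance marks about 5 percent of such groups. The third AQP4 probe read -3.68 in replicate 3 of the day-4 group after 7.4 Gy, while the other arrays of the group read -7.76 to -7.69, and this was the 1 array of 24 on which that probe was above background. The brightest AQP4 probe was also highest in that animal among the group, at -3.83. AQP11 read -1.04 in control replicate 1, while the other controls read -1.68 to -1.59.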

How the results depend on the processing

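No called aquaporin change turned its direction under any alternative. On day 4 after 7.4 Gy, the 3 aquaporin calls were 1 after normexp, with spike-in scaling and under the methods' t-test, and 0 when blocks for array position and scan day were both fitted (AQP8 -4.42, adjusted p = 0.292), where controls and 7.4-Gy arrays never share a position; leaving out 1 array gave 2 to 3. Over all probes the 2690 calls were 1426, 3462, 1655 and 586 in the same order. Spike-in scaling moved the median of all probes from -0.08 to 0.20, and the split from 1297 higher and 1393 lower to 2698 and 764. From day 4 to day 7, the 1 call was 0 under the t-test and 2 with no fold minimum. From day 4 to day 12, the 4 calls were 1 after normexp, 2 under the t-test and 2 to 4 without 1 array, the 2 arising without 6.7-Gy day-4 replicate 2 and without 7.4-Gy day-12 replicate 1. Against control, AQP9 hung on which 7.4-Gy day-12 animal was left out, each such fit leaving 1 animal in that group. Without replicate 2 the difference was 4.44 on day 12 after 7.4 Gy and 2.78 for both day-12 doses. Without replicate 1 it was -0.80 and 0.16. The lone animal of the group is assumed to vary like the others. Comparisons of day 7 or day 12 with control or with day 4 could not be fitted with array position as a block, and the t-test is not defined for the change of the dose difference.

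Replicate numbers did not pair the samples: deviations of same-numbered arrays correlated at -0.228 to 0.236, and 8 of 24 arrays matched their own number best. With the replicate block the calls were 3 on day 4 after 7.4 Gy, 1 from day 4 to day 7 and 3 from day 4 to day 12, AQP9 being lost (1.74, adjusted p = 0.0501). AQP4 and AQP9 lay near background, which limits what could be seen of them.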
